A study of Homo sapiens with 31 samples.

Results

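The ovarian and Müllerian lineage markers are 10 genes used to recognise ovarian carcinoma and the tissues it is thought to arise from: *PAX8*, *WT1*, *SOX17*, *MECOM*, *ESR1*, *PGR*, *MUC16*, *FOLR1*, *WFDC2* and *MSLN*. They were taken by symbol from an expression table of 19221 genes, and 10 of the 10 had a row there. Their rows were picked by symbol and not by level, but the 10 markers were chosen with earlier results of these data known. RNA-sequencing was performed on 31 libraries of human cell lines in 4 groups: A2780, A2780 OlaR and C13* shCEBPB with 8 libraries each and C13* shCON with 7. A2780 is an ovarian carcinoma line and was the untreated parent line here. A2780 OlaR is the strain obtained from it by long culture in rising amounts of olaparib, an inhibitor of PARP, and it is a single selected strain. C13* is a cisplatin-resistant derivative of the OV2008 line, and its cells carried either a control shRNA (shCON) or a lentiviral shRNA against C/EBPβ, the transcription factor encoded by *CEBPB* (shCEBPB). No untransduced C13* cells were among the libraries. OV2008 was handed on as an ovarian line and is listed in registers of misidentified lines as a cervical one. The study calls its samples biological replicates without saying what was grown apart, so the p-values below measure the spread between these libraries.

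The Müllerian ducts of the embryo give rise to the fallopian tube, the uterus and the upper vagina, and the epithelium of the tube is regarded as a source of high-grade serous ovarian carcinoma. PAX8 and SOX17 are transcription factors of that epithelium, WT1 is kept in serous carcinoma and in mesothelium, and MECOM lies in a region that is often amplified in ovarian tumors. ESR1 and PGR, the estrogen receptor α and the progesterone receptor, carry the hormone response of the tract. MUC16 (the CA125 antigen), FOLR1 (folate receptor α), WFDC2 (the HE4 protein) and MSLN (mesothelin) are surface or secreted proteins that serve as serum markers or drug targets.

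Before the markers are described, the groups have to be set against their labels. Over 13470 expressed genes, A2780 OlaR libraries resembled C13* shCON libraries with a median Spearman's rho of 0.988, close to the medians of 0.993 to 0.997 within groups. The labelled pairs were far less alike, at 0.733 for A2780 OlaR with A2780 and 0.798 for C13* shCEBPB with C13* shCON. Of the other groups, C13* shCON was the closest for 8 of 8 A2780 OlaR libraries, and A2780 OlaR was the closest for 7 of 7 C13* shCON libraries. KRT5, a keratin of basal and squamous epithelium, was between 1368 and 1991 FPKM in the libraries of these 2 groups and at 0.0416 or less in A2780 and C13* shCEBPB. VIM, the intermediate filament of mesenchymal cells, was between 328 and 827 FPKM in A2780 and C13* shCEBPB. It was lower in the other 2 groups but differed between them, at 8.49 to 10.5 in C13* shCON and 0.265 or less in A2780 OlaR. The targeted gene *CEBPB* was lower in the knockdown, at 30.2 to 58.7 FPKM in C13* shCEBPB against 75.2 to 101 in C13* shCON. It was at 97.1 to 127 in A2780 OlaR and 85.6 to 111 in A2780. One further label stood out: C13* shCON replicate 1 is titled C13* and has A2780 in its cell line field. Libraries were matched to columns of the table by the codes in the sample descriptions, which are C for A2780 OlaR, O for A2780, CS for C13* shCON and R for C13* shCEBPB. The group names below are these labels, and whether any were exchanged was not tested, which bears on the meaning of every labelled comparison. What part the origin of the cells has in the differences between them cannot be told apart from the treatments. Sums of FPKM per library were 417556 to 454578, and the relative depth read from the steps of low values differed by up to 1.42 times between libraries. The absolute depth is unknown.

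**Figure D1:**
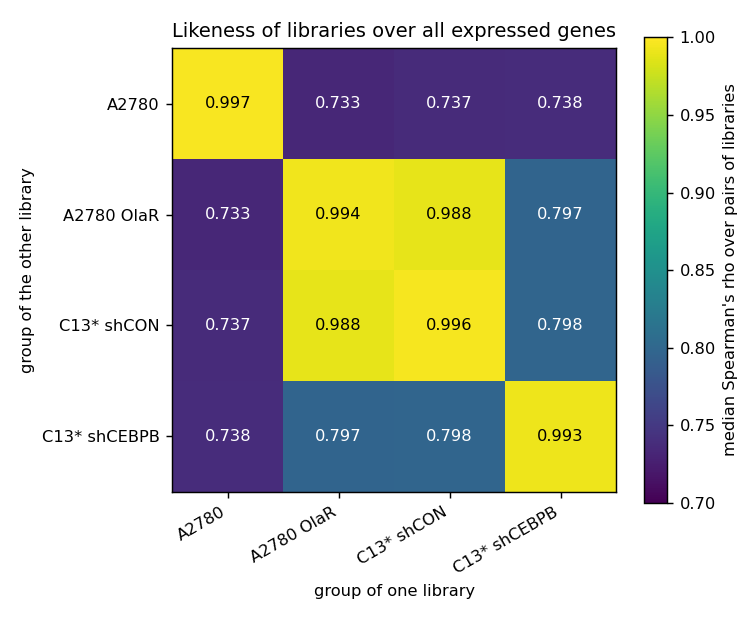
Median Spearman's rho between libraries of each pair of groups over 13470 expressed genes, with the diagonal for pairs within a group. A2780 OlaR and C13* shCON share a value of 0.988, while no other pair of groups is above 0.798.

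At a glance, few of the markers were well expressed in any group. A mean of at least 1 FPKM was reached by 2 of the 10 in A2780 (*FOLR1* and *MSLN*), by 5 in A2780 OlaR, by 6 in C13* shCON and by 4 in C13* shCEBPB. FPKM divide the fragments of a gene by its length and by the size of the library, so levels can be set beside each other across genes. The highest level was *FOLR1* in C13* shCEBPB, the 60th highest gene of that group, and *MSLN* in the same group was the 414th. *WFDC2* was the 2027th gene in A2780 OlaR and the 2061st in C13* shCON. *PGR* was above 0 in 3 libraries. In bulk RNA of this kind, a lower level in each cell and fewer cells with the marker cannot be told apart.

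**Figure D2:**
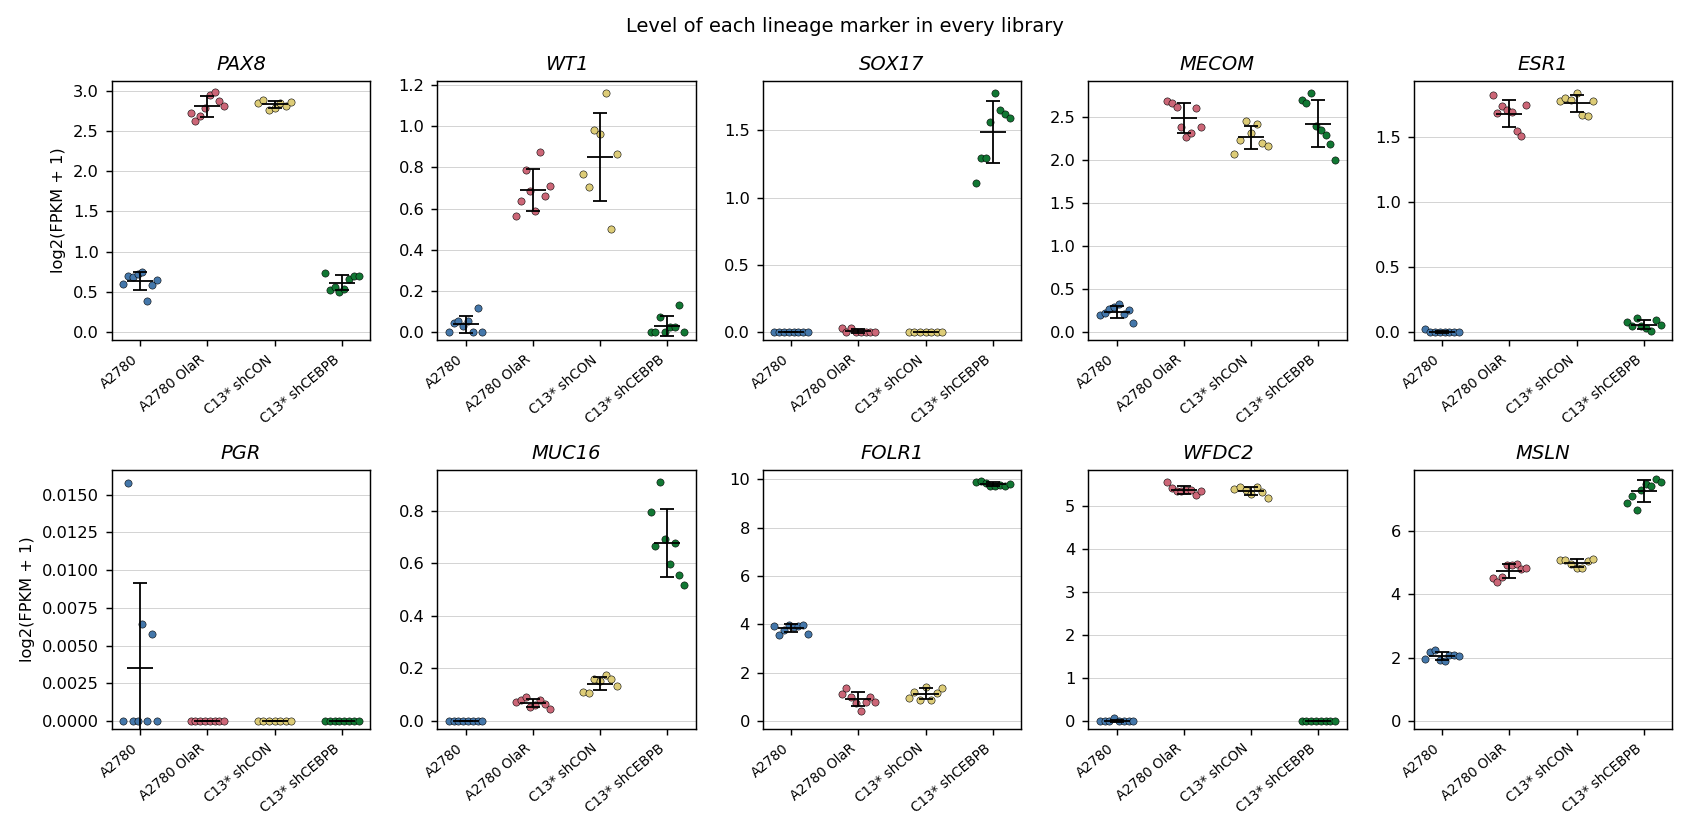
Level of each of the 10 markers as log2(FPKM + 1), with a point for each library and the mean ± SD of each group (n = 8, 8, 7 and 8). *PAX8*, *WT1*, *ESR1* and *WFDC2* are high in A2780 OlaR and C13* shCON only, *SOX17*, *MUC16*, *FOLR1* and *MSLN* are highest in C13* shCEBPB, and each panel has its own axis.

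*PAX8* lies on the minus strand of chromosome 2 (hg38, chr2:113215997-113278921) and has 12 merged exons. It was between 0.306 and 0.673 FPKM in A2780 (median 0.590) and between 0.413 and 0.672 in C13* shCEBPB (median 0.529). In A2780 OlaR it was between 5.18 and 6.93 (median 5.94), and in C13* shCON between 5.74 and 6.396 (median 6.20). The 2 high groups did not overlap the 2 low groups, and within each pair the libraries overlapped. Its exons share 1651 bases with the opposite-strand *PAX8-AS1*, and since it is not stated whether strand was used in the authors' counting, reads of these genes cannot be told apart.

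*WFDC2* lies on chromosome 20 (chr20:45469753-45481532, plus strand) and encodes a small secreted protein with the four-disulfide fold of protease inhibitors. It was high and low in the same groups as *PAX8*, with a far wider gap. A2780 OlaR held 37.3 to 46.4 FPKM (median 40.2) and C13* shCON 35.4 to 42.9 (median 40.2). It was listed at 0 in 8 of 8 libraries of C13* shCEBPB and in 7 of 8 of A2780, whose remaining library held 0.0524.

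*ESR1* (chr6:151656691-152129619, plus strand) was high in the same 2 groups. It was between 1.84 and 2.54 FPKM in A2780 OlaR (median 2.24) and between 2.17 and 2.57 in C13* shCON (median 2.42). C13* shCEBPB held 0.00770 to 0.0775 (median 0.0369), and in A2780 the gene was listed at 0 in 7 of 8 libraries. A lncRNA on the same strand shares 135 exonic bases with it. *PGR* (chr11:101029624-101129813, minus strand), which in many tissues depends on the estrogen receptor, was above 0 in 3 A2780 libraries only, up to 0.0110 FPKM, and 737 of its exonic bases lie opposite *PGR-AS1*.

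*PAX8*, *ESR1* and *WFDC2* were high in the same groups, and *PAX8* and *WFDC2* are taken as an example of a transcription factor and a secreted antigen among them, so the RefSeq sequence around their start sites (GRCh38.p14, 250 bases before to 50 after) is given, 5′ to 3′ on the gene's strand. Capitals mark matches, on either strand, to a C/EBP-like motif (TTNNGCAA), an estrogen response element half-site (AGGTCA) or a GC box (GGGCGG).
PAX8 (chr2:113278872-113279171, minus strand): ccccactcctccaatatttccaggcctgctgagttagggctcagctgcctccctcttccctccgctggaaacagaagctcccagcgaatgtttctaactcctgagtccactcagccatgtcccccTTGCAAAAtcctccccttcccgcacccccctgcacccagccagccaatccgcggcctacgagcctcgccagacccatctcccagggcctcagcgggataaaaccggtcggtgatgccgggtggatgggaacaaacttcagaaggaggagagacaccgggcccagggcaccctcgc
WFDC2 (chr20:45469503-45469802, plus strand): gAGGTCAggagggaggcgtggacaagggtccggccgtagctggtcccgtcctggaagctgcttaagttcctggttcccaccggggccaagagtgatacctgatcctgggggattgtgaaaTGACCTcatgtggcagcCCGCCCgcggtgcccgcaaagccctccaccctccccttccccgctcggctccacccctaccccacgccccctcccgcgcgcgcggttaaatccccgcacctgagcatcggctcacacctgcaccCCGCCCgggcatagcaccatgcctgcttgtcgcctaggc
In *PAX8* the capitals are 1 C/EBP-like match that begins at position -125, counted from 0 at the start site. In *WFDC2* they are 2 half-sites at positions -249 and -130 and 2 GC boxes at positions -113 and 11. The table held 20 promoters for 7 of the 10 markers, of which 3 had a C/EBP-like match, 4 a half-site and 11 a GC box. Among all 35116 promoters of this length, 10.5% held the C/EBP-like motif, 13.8% the half-site and 45.0% the GC box. The C/EBP-like matches lay in a promoter each of *PAX8*, *PGR* and *MUC16*. A match says only that these letters are in the window.

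*WT1* (chr11:32387775-32435564, minus strand) followed *PAX8* at a lower level. A2780 OlaR held 0.478 to 0.832 FPKM (median 0.597) and C13* shCON 0.417 to 1.23 (median 0.823), and these groups overlapped. A2780 had up to 0.0869, with 3 libraries at 0, and C13* shCEBPB up to 0.0978, with 4 libraries at 0. Its exons share 47 bases with the antisense *WT1-AS*.

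*SOX17* (chromosome 8, positions 54457935 to 54460892, plus strand), a partner of PAX8 in Müllerian epithelium, had a different distribution. Both genes were low in A2780. *SOX17* reached 1 FPKM only in C13* shCEBPB, where *PAX8* was low. It was between 1.15 and 2.42 FPKM in C13* shCEBPB (median 1.99). It was listed at 0 in every library of A2780 and C13* shCON and in 6 of 8 of A2780 OlaR, where the highest was 0.0241. *SOX17* and *PAX8* were therefore never both at 1 FPKM or more in a group.

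*MECOM* (chr3:169083499-169663775, minus strand) encodes the zinc finger factor EVI1 and its longer form. It separated A2780 from the other three groups: A2780 held 0.0762 to 0.258 FPKM (median 0.180). The other groups overlapped each other, with 3.82 to 5.43 in A2780 OlaR (median 4.64), 3.20 to 4.45 in C13* shCON (median 3.70) and 3.002 to 5.88 in C13* shCEBPB (median 4.17).

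*FOLR1* (chr11:72189558-72196323, plus strand) encodes the receptor that brings folate into the cell by endocytosis. It was between 837 and 967 FPKM in C13* shCEBPB (median 878). A2780 followed at 10.8 to 14.8 (median 14.002), and A2780 OlaR (0.346 to 1.61, median 0.866) and C13* shCON (0.829 to 1.66, median 1.26) were lowest and overlapped. The gap from the top group to the next was 66.6-fold in mean FPKM.

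*MSLN* (chr16:760734-768865, plus strand) encodes the precursor of mesothelin, a surface protein of mesothelium that binds MUC16. C13* shCEBPB held 98.5 to 197 FPKM (median 162), C13* shCON 27.3 to 33.1 (median 31.6), A2780 OlaR 19.7 to 30.0 (median 27.1) and A2780 2.72 to 3.74 (median 3.16). Among these, only C13* shCON and A2780 OlaR overlapped. *MUC16* (chr19:8848844-9010390, minus strand, 87 merged exons) was low throughout and had the same order with no overlap between any groups. It was between 0.432 and 0.881 FPKM in C13* shCEBPB (median 0.592), 0.0768 and 0.130 in C13* shCON (median 0.112), 0.0333 and 0.0665 in A2780 OlaR (median 0.0490) and at 0.00135 or less in A2780. Its exons span 44165 bases, so a given FPKM stands for more fragments than in the shorter genes.

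The first labelled comparison asks what differs between the olaparib-resistant strain and its parent. In A2780 OlaR, *PAX8*, *MECOM*, *ESR1*, *WFDC2* and *MSLN* were higher than in A2780 and *FOLR1* was lower. Mean FPKM of *PAX8* was 6.002 ± 0.618 against 0.555 ± 0.117 (SD, n = 8 and 8), a ratio of 10.8. *MECOM* was 26.0-fold higher (4.64 ± 0.660 against 0.178 ± 0.0552), *MSLN* 8.17-fold higher (25.8 ± 3.91 against 3.15 ± 0.344), and *FOLR1* was 14.6-fold higher in A2780 (13.3 ± 1.59 against 0.910 ± 0.379). *WFDC2* (40.8 ± 2.63) and *ESR1* (2.21 ± 0.230) had no measurable level in most parent libraries, so no fold is given.

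By the limma test on log2(FPKM + 1), 6 of the 10 markers passed the filter on low values, of which 5 were called higher and 1 lower at an adjusted p under 0.05. Over all 12458 genes tested, 40.1% were called higher and 49.7% lower, so a call alone does not set a marker apart. Of the 6, 5 passed the filter only through the group where they were high (*PAX8*, *MECOM*, *ESR1* and *WFDC2* through A2780 OlaR, *FOLR1* through A2780), which fixed their direction, and *MSLN* was at 1 FPKM or more in every library of both groups. The differences on the log2(FPKM + 1) scale were 2.17 (SE 0.06, adjusted p = 1.02e-17) for *PAX8*, 2.25 (SE 0.06) for *MECOM*, 1.67 (SE 0.04) for *ESR1*, 5.37 (SE 0.04) for *WFDC2*, 2.68 (SE 0.08) for *MSLN* and -2.92 (SE 0.11) for *FOLR1*. The median difference of all genes was -0.12, against which *PAX8* stood at 2.29 and *FOLR1* at -2.80. In an exact permutation test each of the 6 had p = 0.0001554, the smallest that 8 against 8 libraries can give. *WT1* and *MUC16* did not pass the filter, and their libraries did not overlap either (exact permutation p = 0.0001554 for both). The share of all genes without overlap was not counted. With no filter 77.7% of all 17638 genes were called in this comparison, so a difference alone does not set them apart. *WT1* had a mean FPKM of 0.615 ± 0.117 against 0.0272 ± 0.0295 in the parent, too low there for a fold. *SOX17* and *PGR* were at or near 0 in both groups. Squamous and cervical genes moved with this result: of 9 listed, 8 were tested and 8 called higher (median 5.24), their summed level was 2945 to 3879 FPKM in A2780 OlaR and 25.3 to 33.0 in A2780, and KRT5, KRT6A and IVL were at 0 in every A2780 library. Most of the A2780 sum was CDKN2A, with a mean of 26.9 ± 2.65. The part of the squamous and cervical genes in the differences of the lineage markers was not tested.

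The second labelled comparison asks what the C/EBPβ knockdown changed in C13*. The markers split: *SOX17*, *FOLR1* and *MSLN* were higher in C13* shCEBPB, *PAX8*, *ESR1* and *WFDC2* were lower, and *MECOM* did not pass the test. Mean FPKM of *FOLR1* was 887 ± 49.9 against 1.20 ± 0.351 (SD, n = 8 and 7), a ratio of 740.3. *MSLN* was 5.001-fold higher (154 ± 34.7 against 30.7 ± 2.51). *PAX8* was 11.4-fold higher in the control (6.10 ± 0.234 against 0.536 ± 0.102). *ESR1* was higher there too (2.38 ± 0.151 against 0.0426 ± 0.0236), with a level in the knockdown too low for a fold. *WFDC2* had 39.9 ± 2.74 in the control and was listed at 0 in the knockdown, and *SOX17* had 1.83 ± 0.431 in the knockdown and was listed at 0 in the control.

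By limma 7 of the 10 markers were tested, and 3 were called higher, 3 lower and 1 in neither direction. Over all 12006 genes tested, 38.9% were called higher and 45.7% lower. *SOX17* and *FOLR1* passed the filter only through C13* shCEBPB and *PAX8*, *ESR1* and *WFDC2* only through C13* shCON, which fixed the direction of these 5, while *MSLN* and *MECOM* passed through either group. On the log2(FPKM + 1) scale the differences were 8.67 (SE 0.08, adjusted p = 3.20e-23) for *FOLR1*, 2.25 (SE 0.12) for *MSLN*, 1.49 (SE 0.08) for *SOX17*, -2.21 (SE 0.05) for *PAX8*, -1.70 (SE 0.04) for *ESR1* and -5.35 (SE 0.04) for *WFDC2*, beside a median of all genes of -0.07. Each of these 6 had an exact permutation p = 0.0003108, the smallest that 8 against 7 libraries can give. *MECOM* differed by 0.16 (95% interval -0.06 to 0.38, adjusted p = 0.173), and its direction depended on which libraries were used: 0.46 in library numbers 1 to 3 (adjusted p = 0.00176) and -0.03 in numbers 4 to 8 (adjusted p = 0.756). It was called higher with quantile normalization (0.37, adjusted p = 0.00244) and with the replicate block (0.22, adjusted p = 0.0381). *MUC16* and *WT1* did not pass the filter but did not overlap between the groups. With no filter 73.5% of all 17334 genes were called in this comparison, so a difference alone does not set them apart. *MUC16* was 5.81-fold higher in the knockdown (0.604 ± 0.147 against 0.104 ± 0.0200) and *WT1* was higher in the control (0.819 ± 0.266 against 0.0232 ± 0.0350, with 4 knockdown libraries at 0), both with an exact permutation p = 0.0003108. For comparison, *CEBPB* itself was 1.82-fold higher in the control (-0.87 in C13* shCEBPB on the log2 scale, SE 0.11, adjusted p = 1.42e-06). Squamous and cervical genes moved here too: 8 of 8 tested were called lower (median -4.63), with a summed level of 246 to 442 FPKM in C13* shCEBPB against 2849 to 3473 in C13* shCON, and IVL was at 0 in every knockdown library. Most of the C13* shCEBPB sum was CDKN2A (mean 219 ± 44.9) and SFN (129 ± 33.8), with SERPINB5 at 5.90 ± 1.26. There KRT5, KRT6A, KRT14, DSG3 and TP63 had means of 0.0791 or less. The part of the squamous and cervical genes in the result was not tested.

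**Figure D3:**
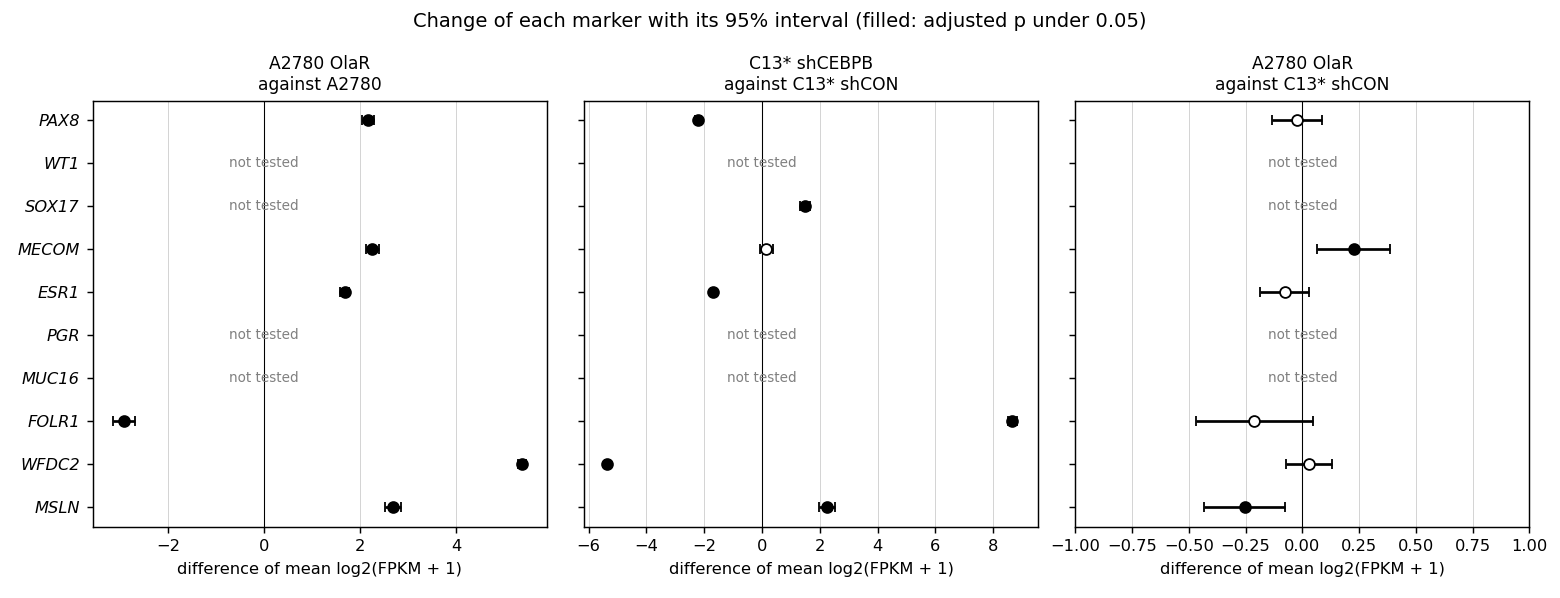
Difference of mean log2(FPKM + 1) for each marker in 3 comparisons, with the 95% interval, filled points where the adjusted p was under 0.05, and a different horizontal scale in each panel. *PAX8*, *ESR1* and *WFDC2* lie above 0 in the first panel and below it in the second, and no tested marker is beyond 0.26 from 0 in the third.

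The likeness of A2780 OlaR and C13* shCON held for the markers. This pair is not a comparison of the study and crosses 2 cell lines by label. Of 6 markers tested, 2 were called, beside 42.2% of all 11547 genes called in either direction. *MECOM* was higher in A2780 OlaR by 0.23 (SE 0.08, adjusted p = 0.0236), a ratio of means of 1.22, and *MSLN* differed by -0.26 (SE 0.08, adjusted p = 0.0215), being 1.19-fold higher in C13* shCON, with overlapping libraries in both cases. Neither call held in library numbers 4 to 8, where *MECOM* differed by 0.12 (adjusted p = 0.204) and *MSLN* by -0.06 (adjusted p = 0.394), and without C13* shCON replicate 1 *MECOM* had an adjusted p of 0.0544. The other four had intervals of -0.14 to 0.09 (*PAX8*), -0.19 to 0.03 (*ESR1*), -0.47 to 0.05 (*FOLR1*) and -0.07 to 0.13 (*WFDC2*). *FOLR1* differed by 0.17 in library numbers 1 to 3 (adjusted p = 0.295) and by -0.46 in numbers 4 to 8 (adjusted p = 0.00649), and *PAX8* by 0.05 in numbers 4 to 8. *MUC16*, which did not pass the filter, was the marker whose libraries did not overlap: it was 2.11-fold higher in C13* shCON (exact permutation p = 0.0003108). With no filter 31.2% of all 17204 genes were called between these groups. *WT1* was 1.33-fold higher there with overlapping libraries (exact permutation p = 0.0814).

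C13* shCEBPB and A2780, the groups with little *PAX8*, *ESR1* and *WFDC2*, differed in other markers. All 4 markers tested were called higher in C13* shCEBPB, where 37.4% of all 12234 genes were called higher: *FOLR1* by 5.96 (SE 0.06, adjusted p = 8.08e-24), *MSLN* by 5.19 (SE 0.12), *MECOM* by 2.18 (SE 0.09) and *SOX17* by 1.49 (SE 0.08), while the median of all genes was -0.18. *SOX17* and *MECOM* passed the filter only through C13* shCEBPB, which fixed their direction, and *FOLR1* and *MSLN* passed through either group. In mean FPKM *MSLN* was 48.7-fold and *MECOM* 24.8-fold higher. *PAX8* was not tested and its means were 0.536 and 0.555 (exact permutation p = 0.750), and *WT1* was as close (exact permutation p = 0.785). *ESR1* was 0.0426 ± 0.0236 in C13* shCEBPB against 0.00192 ± 0.00542 in A2780, with overlapping libraries (exact permutation p = 0.0003108).

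The remaining pairings share libraries with those above, and their values are given side by side. Between A2780 OlaR and C13* shCEBPB, 7 markers were tested, and 3 were called higher and 3 lower in A2780 OlaR, beside 83.7% of all 11962 genes called in either direction. *PAX8* differed by 2.19 (SE 0.06), *ESR1* by 1.62 (SE 0.04), *WFDC2* by 5.38 (SE 0.04), *FOLR1* by -8.88 (SE 0.10), *MSLN* by -2.51 (SE 0.13) and *SOX17* by -1.48 (SE 0.08), and *MECOM* by 0.07 (95% interval -0.15 to 0.29, adjusted p = 0.544). Between C13* shCON and A2780, 6 were tested, and 5 were called higher and 1 lower in C13* shCON, beside 91.4% of all 12515 genes. Here *PAX8* differed by 2.19 (SE 0.05), *MECOM* by 2.03 (SE 0.05), *ESR1* by 1.75 (SE 0.03), *WFDC2* by 5.34 (SE 0.04), *MSLN* by 2.93 (SE 0.06) and *FOLR1* by -2.71 (SE 0.09). These 2 cross the labelled cell lines as well. In both, the markers other than *MSLN* and, in the first, *MECOM* passed the filter only through the group where they were high.

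In A2780 OlaR and C13* shCEBPB, and less so in A2780, libraries numbered 1 to 3 stood apart from those numbered 4 to 8. The share of expressed genes whose values did not overlap between these ranges was 57.2% in A2780 OlaR and 53.4% in C13* shCEBPB, against 20.7% in A2780 and 4.77% in C13* shCON. The labels name no batch. In C13* shCEBPB, *MSLN* was 98.5 to 134 FPKM in numbers 1 to 3 and 155 to 197 in 4 to 8, and *SOX17* 1.15 to 1.46 and 1.96 to 2.42. *MECOM* went the other way in that group, at 5.32 to 5.88 and 3.002 to 4.24, and so did *FOLR1*, at 908 to 967 and 837 to 884. The knockdown target *CEBPB* was 30.2 to 42.1 and 47.7 to 58.7 in C13* shCEBPB, and its part in the marker ranges was not tested. In A2780 OlaR *MSLN* was 19.7 to 22.1 and 26.9 to 30.0, and *PAX8* 5.18 to 5.61 and 5.89 to 6.93. *MECOM* in A2780 OlaR was 5.10 to 5.43 and 3.82 to 5.09. No test was made of these ranges, and the differences of the labelled comparisons kept their direction within both of them except for *MECOM* in C13* shCEBPB against C13* shCON.

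**Figure D4:**
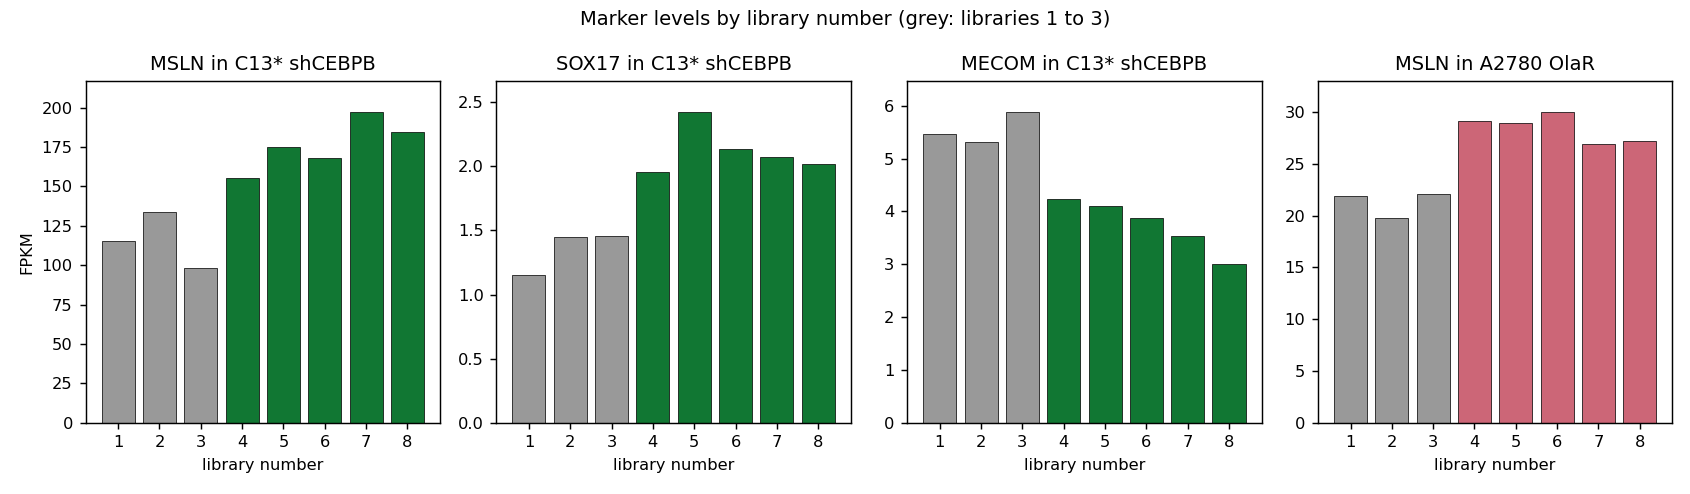
FPKM of *MSLN*, *SOX17* and *MECOM* in the 8 C13* shCEBPB libraries and of *MSLN* in the 8 A2780 OlaR libraries, with a bar for each library and grey bars for numbers 1 to 3. The grey bars are lower than all others for *MSLN* and *SOX17* and higher than all others for *MECOM*.

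Other genes of the same tissues and pathways were taken from lists. Their counts stand beside the same shares of all genes called as above, 40.1% higher and 49.7% lower in A2780 OlaR against A2780 and 38.9% and 45.7% in C13* shCEBPB against C13* shCON. Of 10 Müllerian and reproductive tract transcription factors, 6 were tested in A2780 OlaR against A2780, with 1 called higher and 4 lower (median -2.98, all genes -0.12). In C13* shCEBPB against C13* shCON 7 were tested, with 4 higher and 3 lower (median 1.04, all genes -0.07). HOXA10, which patterns the uterus, was 58.3 ± 1.33 FPKM in A2780, 6.52 ± 0.493 in A2780 OlaR, 6.25 ± 0.530 in C13* shCON and 13.96 ± 1.26 in C13* shCEBPB. HOXA11 was 35.3 ± 1.43, 3.25 ± 0.514, 3.32 ± 0.376 and 16.6 ± 1.71 in the same order of groups. HOXA9, which patterns the tube, was 24.1 ± 1.61, 25.2 ± 1.54 and 26.8 ± 1.14 in A2780, A2780 OlaR and C13* shCON and 1.09 ± 0.190 in C13* shCEBPB. MEIS1, a HOX cofactor, was 29.1 ± 1.31 in A2780 and 1.95 or less on average elsewhere.

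Of 20 further ovarian carcinoma antigens, 14 were tested between A2780 OlaR and A2780, with 11 called higher and 2 lower (median 2.45), beside 40.1% and 49.7% of all genes. Between C13* shCEBPB and C13* shCON 13 were tested, with 2 higher and 11 lower (median -2.64), beside 38.9% and 45.7% of all genes. EPCAM, the epithelial adhesion molecule, was 116 ± 9.46 FPKM in A2780 OlaR and 111 ± 3.44 in C13* shCON, against 1.20 ± 0.218 in A2780 and 0.567 ± 0.192 in C13* shCEBPB. In the same order of groups, the tight junction protein CLDN4 was 105 ± 11.5 and 105 ± 7.59 against 0.477 ± 0.209 and 11.5 ± 3.49. BCAM, a laminin receptor, was 154 ± 15.03, 149.6 ± 8.79, 27.2 ± 2.04 and 6.95 ± 1.34. Other members of the list had other orders. MUC1 was 2.04 ± 0.592, 1.99 ± 0.391, 12.1 ± 1.70 and 92.4 ± 12.2 in these groups. SLPI was highest in C13* shCEBPB (68.8 ± 9.14), and CP was 5.04 ± 0.472 in A2780 and 0.175 or less on average elsewhere.

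Estrogen receptor cofactors and targets were examined beside *ESR1*. Of 15, 9 were tested in A2780 OlaR against A2780, with 4 called higher and 5 lower (median -0.42), close to the shares of all genes (40.1% and 49.7%), and 10 in C13* shCEBPB against C13* shCON, with 7 higher and 3 lower (median 0.34). FOXA1, which opens chromatin for the receptor, was 36.4 ± 0.712 FPKM in A2780 OlaR, 23.8 ± 1.26 in C13* shCON and 18.5 ± 0.808 in A2780, and 0.512 ± 0.173 in C13* shCEBPB. XBP1 was 181 ± 3.07 in A2780 and 42.7 to 53.7 on average elsewhere, IGFBP4 was 88.5 ± 15.8 in C13* shCEBPB and under 1 elsewhere, and the group means of PGRMC1 lay between 49.1 and 67.1.

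Beside *FOLR1*, 12 genes of folate uptake and use were examined. Of 10 tested in A2780 OlaR against A2780, 6 were called higher and 2 lower (median 0.58), and of 11 in C13* shCEBPB against C13* shCON, 6 were higher and 3 lower (median 0.13). The other folate receptor genes beside it on chromosome 11 were low where *FOLR1* was at its highest, with 0.0463 ± 0.0402 FPKM for FOLR2 and 0.130 ± 0.0955 for FOLR3 in C13* shCEBPB. FPGS, which adds glutamates to folate and so retains it in the cell, was 111 ± 15.7 in that group and 27.1 to 41.8 on average in the others. The one-carbon enzymes SHMT2 (105 to 116) and MTHFD1 (23.3 in A2780, 63.6 to 72.2 elsewhere) and SHMT1 (26.6 to 87.0) are given as the range of their group means.

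The WFDC genes that lie with *WFDC2* on chromosome 20 were mostly low. Of 8, 1 was tested in A2780 OlaR against A2780 and was called higher (by 4.97), and of 2 tested in C13* shCEBPB against C13* shCON 1 was higher and 1 lower (median 0.08). SLPI, a leukocyte protease inhibitor, was 37.3 ± 3.86 FPKM in A2780 OlaR and 35.5 ± 6.80 in C13* shCON, as *WFDC2* was, but 68.8 ± 9.14 in C13* shCEBPB, where *WFDC2* was at 0. PI3 was 1.82 ± 0.484, 1.80 ± 0.571 and 0.635 ± 0.363 in these groups and 0.00996 ± 0.0282 in A2780, with *WFDC2* high in the same 2 groups. It was lower in C13* shCEBPB than in C13* shCON by -0.78 (adjusted p = 5.93e-05). WFDC3 and WFDC5 had means under 0.5 in all. The nearest coding gene to *WFDC2*, PIGT, 12819 bases away, had 41.5 in A2780 OlaR and 89.7 in C13* shCEBPB.

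Markers of other cell types that could share these antigens were read beside them. Of 6 mesothelial genes, 3 were tested in each labelled comparison, and 3 were called higher in A2780 OlaR (median 3.54) and 3 lower in C13* shCEBPB (median -2.40). Their summed level was 38.3 to 43.7 FPKM in A2780 OlaR, 41.3 to 43.9 in C13* shCON, 2.63 to 8.05 in C13* shCEBPB and 0.462 to 0.825 in A2780. It was thus lower in C13* shCEBPB, where *MSLN* was highest, than in C13* shCON. BNC1 made up much of the sum in A2780 OlaR and in C13* shCON (mean 26.0 ± 1.36 in the latter), the groups with high KRT5. Whether the sum stands for mesothelial identity was not tested. BNC1 was 23.4 ± 1.83 in A2780 OlaR and 0.00129 ± 0.00366 in C13* shCEBPB, UPK3B 13.05 ± 0.676 and 4.96 ± 2.10, and CALB2 4.39 ± 0.542 and 0. LRRN4 was under 0.3 in every group mean. Of 7 granulosa and steroidogenic genes, 3 were tested in each comparison, with 3 called lower in A2780 OlaR (median -1.27) and 3 higher in C13* shCEBPB (median 1.49). FOXL2, the granulosa factor, was 10.7 ± 0.442 in A2780 and 11.5 ± 1.23 in C13* shCEBPB against 3.86 ± 0.449 and 3.46 ± 0.451, and AMH was highest in C13* shCEBPB at 7.13 ± 1.02. INHA and CYP11A1 had means of 2.86 or less, and FSHR was at 0 in every library.

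Of 6 mesenchymal genes, 5 were tested in each labelled comparison. In A2780 OlaR 1 was called higher and 4 lower (median -2.50), and in C13* shCEBPB 2 were higher and 3 lower (median -0.16). VIM was 809 ± 13.8 FPKM in A2780, 0.160 ± 0.0585 in A2780 OlaR, 9.82 ± 0.648 in C13* shCON and 342 ± 10.7 in C13* shCEBPB. ZEB1 was 14.5 ± 0.924, 0.536 ± 0.125, 0.507 ± 0.120 and 6.55 ± 1.31, while CDH2 and TWIST1 were highest in A2780 (58.5 ± 2.27 and 40.3 ± 4.48) and lowest in C13* shCEBPB (7.56 ± 2.32 and 3.07 ± 0.928). FN1 went the other way, at 0.524 ± 0.0619 in A2780 and 6.98 to 7.93 on average elsewhere. SPARC was at 0.0513 or less in every group mean. Of 6 blood and endothelial genes, 2 were tested in A2780 OlaR against A2780, with CD68 called higher and PTPRC lower (median -1.35), and 1 in C13* shCEBPB against C13* shCON, with CD68 lower (-2.39). PTPRC, the leukocyte antigen CD45, was 85.9 ± 7.94 in A2780 and at 0.00180 or less in the other means, while CD3E was at 0 in every library. PECAM1 and VWF had means of 0.541 or less.

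**Figure D5:**
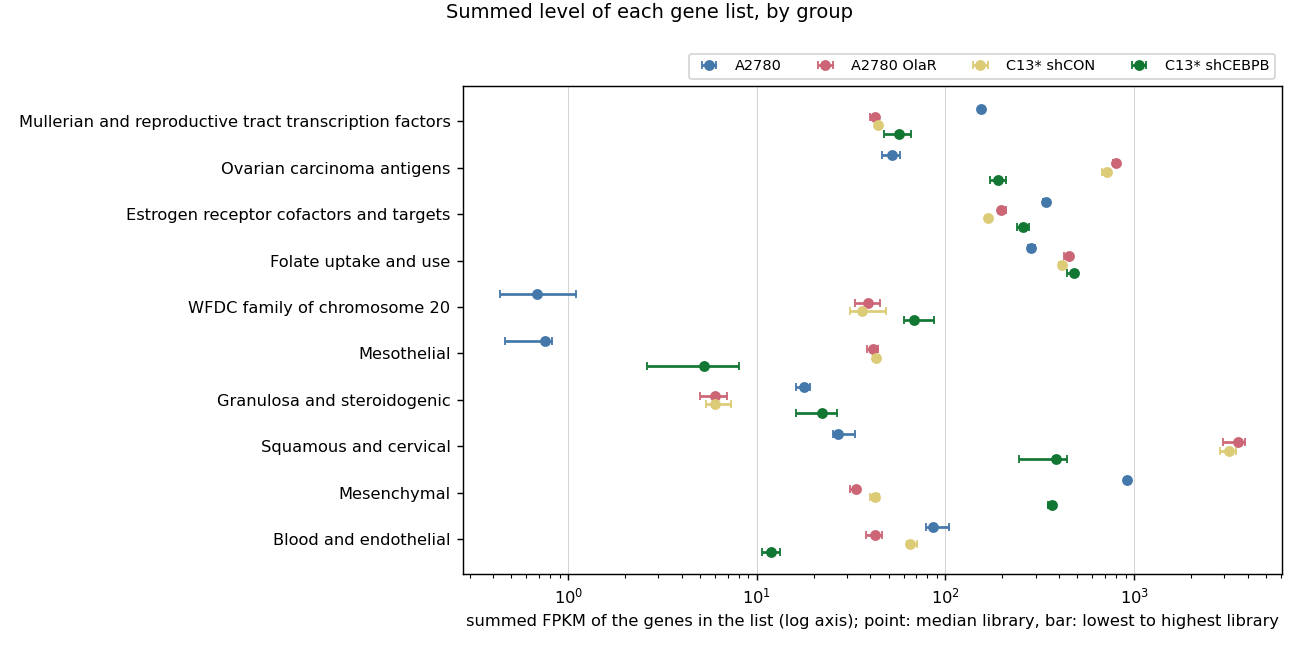
Summed FPKM of each gene list on a log axis, with a point for the median library of a group and a bar from its lowest to its highest library. For squamous and cervical genes the sums run from 25.3 in A2780 to 3879 in A2780 OlaR, and for the mesothelial list C13* shCEBPB lies below C13* shCON.

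Genes whose pattern over the 31 libraries was most like a marker were searched among 12967 expressed genes by Pearson's r of log2(FPKM + 1). The libraries fall into 4 groups, so r mainly records the group means. Among the closest genes of *WFDC2* was TP63 (r = 0.9995), with group means at 56.1 FPKM in A2780 OlaR, 53.1 in C13* shCON, 0.133 in A2780 and 0.0791 in C13* shCEBPB. Among those of *PAX8* was HLA-F (0.997). *ESR1* was closest to DDX43 (0.998) and EREG (0.998), *SOX17* to SLC17A9 (0.997) and C11orf86 (0.996), and *FOLR1* to CRTC3 (0.998) and PSG4 (0.997). *MECOM* was closest to ERVMER34-1 (0.993) and RFWD3 (0.992), and *MSLN* to WDR5 (0.996) and DDX23 (0.994). *WT1*, *PGR* and *MUC16* were too low for the search.

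The coding neighbours of the markers were read beside them, with no test. PSD4, 6601 bases from *PAX8*, had 10.8 ± 1.41 FPKM in A2780 OlaR and 7.74 ± 0.507 in C13* shCON against 0.193 ± 0.0655 in A2780 and 1.59 ± 0.437 in C13* shCEBPB, the same 2 groups being high. FOXD4L1, on the other side of *PAX8*, was at 0.442 or less in every group mean. RCN1, beside *WT1*, was higher where *WT1* was low (150.4 ± 5.97 in A2780 and 155 ± 17.2 in C13* shCEBPB against 81.1 ± 5.03 in A2780 OlaR and 75.5 ± 3.61 in C13* shCON), and EIF3M on its other side ranged from 96.7 to 151 in group means. ACTRT3, beside *MECOM*, was 0.819 ± 0.147 in A2780 and 1.92 to 2.33 on average elsewhere, as *MECOM* was lowest in A2780, while GOLIM4 on the other side was highest in C13* shCEBPB (51.8 ± 5.68). Next to *MSLN*, HAGHL and RPUSD1 were highest in C13* shCEBPB as well, at 97.3 ± 24.0 and 48.4 ± 9.86, with means of 23.4 or less and 11.9 or less in the other groups. RP1, the coding gene above *SOX17*, was at 0.0617 or less in every group mean, while CCDC170, below *ESR1*, was low but high and low in the same groups as *ESR1* (0.176 ± 0.0265 in A2780 OlaR and 0.161 ± 0.0374 in C13* shCON against 0.00689 ± 0.00788 in A2780 and 0.00528 ± 0.00760 in C13* shCEBPB).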

How the data were processed

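RNA-sequencing of 31 libraries was analysed in the 4 groups given by the sample titles. As the study states, paired-end reads of 150 bp were aligned by TopHat to the hg38 genome and HTSeq gave counts per gene, and FastQC is named in the submitters' processing notes. The authors deposited 1 table of FPKM with 19225 entries, and only this table was analysed. The tool and annotation behind the FPKM and the use of strand are not given in the sources used here. FPKM carry no read totals, so no counting interval or floor is given. Of the entries, 4 with 2 repeated symbols were left out, and 1212 of the remaining 19221 genes were at 0 in every library. No pair of libraries had identical values. Values up to 0.3 FPKM gave the relative depth of libraries through their steps, of which 88.4% lay within 0.1 of a whole multiple.

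Each comparison used its own 2 groups in limma 3.58.1 under R 4.3.3 (lmFit, then eBayes with a variance trend), two-sided, on log2(FPKM + 1). This scale understates the change of low genes. The study ran an exact test on counts, for which limma stands in here. The filter kept genes of 1 FPKM or more in a number of libraries equal to the size of the smaller group. Genes were called at a Benjamini-Hochberg adjusted p under 0.05 over all genes tested. Each marker also had a two-sided exact permutation test of its difference of mean log2(FPKM + 1). Those p-values were not adjusted. Simulated data for the 6 comparisons (11120 to 11760 genes) had libraries of both groups drawn independently around the gene means of the second group. They held no split by library number, and the 200 changed genes lay above about 5 FPKM. There the limma step found 198 to 200 of 200 genes changed by 1. These settings differ from the data, so the rates hold for the simulation only. The share of false calls was 4.31% for A2780 OlaR against A2780, 1.49% for C13* shCEBPB against C13* shCON, 7.44% for A2780 OlaR against C13* shCON and 6.54%, 6.60% and 7.41% for C13* shCEBPB against A2780, A2780 OlaR against C13* shCEBPB and C13* shCON against A2780. Python 3.11.15, numpy 2.4.6, pandas 2.3.3, scipy 1.17.1 and matplotlib 3.10.9 were used for the other steps.

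Positions and overlaps are from GENCODE 44 on hg38, which may differ from the annotation behind the FPKM. The genes named from the 10 lists are the 4 with the highest mean FPKM in each, and those named as most alike are the 2 with the highest r. Some of these are not reported here. Other list members are named for an antigen's gene family, its neighbours, a level of 0, a level unlike the rest of their list or their share of a sum. They were chosen after their values were seen. The 10 markers and the lists were chosen with earlier results of these data known. Alternatives tried were other pseudocounts and filters, a common sum of FPKM, quantile normalization, 1 fit of all groups, no variance trend, a replicate block, the library number ranges, a change of at least 1, and leaving out C13* shCON replicate 1.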

Additional observations from a re-analysis of the deposited data

Results flagged for a closer look

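Within groups, 34 sets of marker values with any spread were examined for a library far from the others by Dixon's ratio. Of these, 5 were flagged. By chance the ratio flags about 1 in 20 sets of normal values, and sets with many libraries at 0 are not normal. For *ESR1* and *WFDC2* in A2780, 7 of 8 libraries were at 0, so any value above 0 is flagged. The number of flags is therefore not read against that rate. All 5 were in A2780, where these genes were low. *PAX8* was 0.306 FPKM in replicate 6, while the other libraries of the group held 0.501 to 0.673. *WT1* was 0.0869 in replicate 7, with the others at 0.0391 or less. *PGR* was 0.0110 in replicate 2, with the others at 0.00448 or less. *ESR1* was 0.0153 in replicate 1 and *WFDC2* 0.0524 in replicate 4, with every other library of the group at 0 for both. The 5 flags fell in 5 different libraries.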

How the results depend on the processing

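Of 435 recomputed differences of single markers, 418 kept their direction and their side of the threshold, 4 passed it newly, 8 lost it and 5 reversed, all of these in *MECOM*, *MSLN*, *FOLR1* or *PAX8*. The reversals were *MECOM* in C13* shCEBPB against C13* shCON with library numbers 4 to 8 (-0.0287), *PAX8* with numbers 4 to 8 (0.0537) and *FOLR1* with numbers 1 to 3 (0.17) in A2780 OlaR against C13* shCON, and *MECOM* in A2780 OlaR against C13* shCEBPB with quantile normalization (-0.12) and numbers 1 to 3 (-0.0587). With a change of at least 1 required, the genes called were 4446 for A2780 OlaR against A2780, 3539 for C13* shCEBPB against C13* shCON, 68 for A2780 OlaR against C13* shCON, 4710 for C13* shCEBPB against A2780, 3459 for A2780 OlaR against C13* shCEBPB and 4469 for C13* shCON against A2780, in place of 11190, 10166, 4876, 10877, 10018 and 11434. A filter at 5 FPKM tests fewer markers and left 3 called higher in A2780 OlaR against A2780, 0 in A2780 OlaR against C13* shCON, 2 in C13* shCEBPB against A2780 and 3 in C13* shCON against A2780. In A2780 OlaR against C13* shCON the 1 marker called higher became 0 with the replicate block, with library numbers 4 to 8, without C13* shCON replicate 1 and with a change of at least 1, and the 1 called lower became 2 with no filter and 0 with 1 fit of all groups, the replicate block and a change of at least 1. The cause was not tested. Libraries of the same replicate number did not deviate together in every pair of any comparison, so these numbers were not taken as pairing. In A2780 OlaR against C13* shCEBPB 7 of 8 pairs had a correlation over 0.1, and 1 or 2 did elsewhere. At most 2 of 8 libraries correlated best with their own replicate number. Replicates 6 and 7 of C13* shCON have library numbers 7 and 8. They were therefore matched, here and in the replicate block, to libraries of another library number. With the replicate block 10960 genes were called in A2780 OlaR against A2780, 9859 in C13* shCEBPB against C13* shCON, where *MECOM* was called (0.22, adjusted p = 0.0381), and 3424 in A2780 OlaR against C13* shCON. The 50 recomputed levels moved by less than 1 SD. Pseudocounts set the size of differences from near 0: *WFDC2* in A2780 OlaR against A2780 ran from 5.33 to 11.7 over the alternatives.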
